A study of Equus caballus with 10 samples.

Results

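The NF-κB and IκB family was followed here in horse tendon cells that received the cytokine IL-1β while the kinase IRAK-4 was inhibited. The 10 members are the genes of all the NF-κB subunits (*NFKB1*, *NFKB2*, *REL*, *RELA* and *RELB*) and of 5 IκB proteins (*NFKBIA*, *NFKBIB*, *NFKBIE*, *NFKBIZ* and *BCL3*). They were found by gene symbol among the 29196 genes of the deposited table, where all 10 have values. Primary tenocytes of 5 adult horses, called lines 1 to 5 below, were kept in 3D collagen gels over 14 days, and each line gave 1 library to each of 2 groups. In the first group, PF-06650833 alone, the IRAK-4 inhibitor PF-06650833 was added daily at 100 nM. In the second group, IL-1β plus PF-06650833, the cells also received 17 ng/ml of IL-1β every 3 to 4 days. Both groups therefore carried the inhibitor, and their libraries are called those without and with IL-1β below. Libraries without the inhibitor were not used here, so the comparison measures what IL-1β changed in its presence and not what the inhibitor changed. The cells are passaged cultures of the superficial digital flexor tendon in medium with fetal bovine serum, several gels per library, and the labels do not give the age or sex of each line.

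NF-κB is a family of transcription factors that bind DNA as pairs of subunits. RelA, c-Rel and RelB (genes *RELA*, *REL* and *RELB*) carry the activating domain, while p50 and p52 are cut from longer precursors encoded by *NFKB1* and *NFKB2*. In resting cells the classical inhibitors IκBα, IκBβ and IκBε (*NFKBIA*, *NFKBIB* and *NFKBIE*) hold these pairs in the cytoplasm. Receptors for IL-1β act through MyD88 and the IRAK kinases on the IκB kinase complex, which marks the inhibitors for destruction and frees the pairs to enter the nucleus. *NFKBIZ* and *BCL3* encode IκBζ and Bcl-3, atypical IκB proteins that work in the nucleus as partners of p50 and p52. Several of these genes are themselves known targets of NF-κB, *NFKBIA* being the best known example of negative feedback. Messenger RNA levels, which are what was measured here, do not show how much of each protein is in the nucleus.

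Values are the log2 values of the authors, taken here to be variance-stabilized. On this reading 3.43 stands for 0 reads and 1 unit is close to a 2-fold change for well expressed genes. These values are not divided by gene length, so levels were compared between groups and lines but not between genes. The reads on genes were estimated from the spacing of the low values at between 26600000 and 35800000 per library without IL-1β and between 26800000 and 33500000 with it. *BCL3* had the fewest reads of the family, with 49 to 89 normalized counts per library, and the other members had at least 338 in every library. All 10 members passed the filter on low values and were among the 17992 genes tested with limma.

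With IL-1β plus PF-06650833, 7 of the 10 members rose, at an adjusted p below 0.05 from limma with Benjamini-Hochberg adjustment over all tested genes. Of all tested genes 15.5% passed this test, 7.57% higher and 7.89% lower. The test was passed by 4 of the 5 subunit genes and by 3 of the 5 IκB genes. *NFKBIZ* rose the most, 7.55-fold, followed by *NFKBIA* (3.11-fold), *NFKB2* (2.50-fold), *NFKB1* (2.22-fold), *REL* (1.93-fold), *RELB* (1.64-fold) and *NFKBIB* (1.60-fold). *RELA*, *NFKBIE* and *BCL3* did not pass in either direction. The thresholds of the study also ask for a log2 fold change of at least 1. Applied to the limma fit, they were met by 4 members (*NFKB1*, *NFKB2*, *NFKBIA* and *NFKBIZ*), against 6.68% of all tested genes (3.11% higher). These are not the calls of the study, which used DESeq2 and reports more differentially expressed genes for this comparison than passed here. With the line as a block in the fit, the same 7 and the same 4 members passed, against 22.2% and 8.26% of all tested genes. The members had a median log2 fold change of 0.83 and all tested genes one of -0.01, and in 75.4% of these the change was smaller than 0.5. In 6 members every library with IL-1β was above every library without IL-1β, as in 6.29% of all tested genes (12.7% in either direction). In 8 members all 5 lines were higher with IL-1β, as in 16.0% of all tested genes. Fewer cells of a kind and less RNA per cell cannot be told apart in such bulk libraries.

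**Figure D1:**
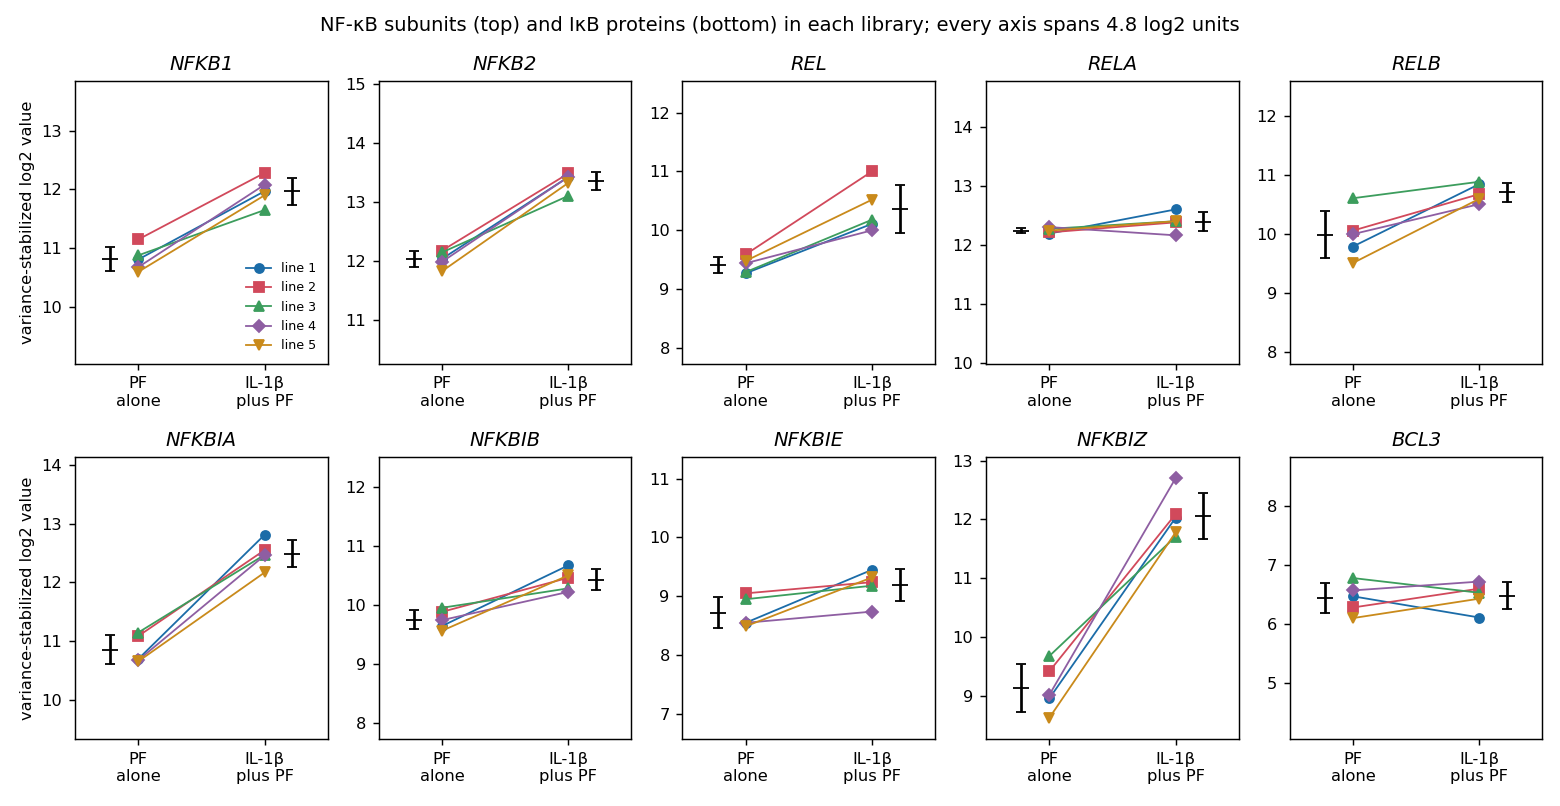
Variance-stabilized log2 values (y axis) of the 10 members in the 5 lines with PF-06650833 alone (PF alone) and with IL-1β plus PF-06650833 (IL-1β plus PF), 1 point per library, with a line joining the libraries of the same horse. Black bars give the group mean ± SD (n = 5). The groups are apart in *NFKB1*, *NFKB2*, *REL*, *NFKBIA*, *NFKBIB* and *NFKBIZ* and overlap in *RELA*, *RELB*, *NFKBIE* and *BCL3*.

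The precursor genes *NFKB1* and *NFKB2* rose in all 5 lines. In lines 1 to 5, *NFKB1* was at 10.81, 11.15, 10.88, 10.68 and 10.60 without IL-1β and at 11.97, 12.28, 11.65, 12.08 and 11.90 with IL-1β. The lowest value with IL-1β was 0.50 above the highest value without it. The log2 fold change of *NFKB1* was 1.15 (standard error 0.13, 95% confidence interval 0.86 to 1.45, adjusted p = 4.36e-04 from limma). *NFKB2* was at 12.03, 12.17, 12.14, 11.98 and 11.82 without IL-1β and at 13.42, 13.48, 13.10, 13.42 and 13.32 with IL-1β. It varied little within a group (SD 0.14 and 0.15, n = 5), and the gap between the groups was 0.94. Its log2 fold change was 1.32 (standard error 0.10, 95% confidence interval 1.10 to 1.54, adjusted p = 7.28e-05 from limma), and by p-value it ranked 8 among the 17992 genes tested. The smallest change of both genes was in line 3, at 0.77 for *NFKB1* and 0.96 for *NFKB2*.

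Of the genes of the activating subunits, *REL* and *RELB* rose and *RELA* did not pass the test. *REL*, the gene of c-Rel, was at 9.27, 9.59, 9.29, 9.44 and 9.48 without IL-1β and at 10.11, 11.00, 10.18, 10.00 and 10.52 with IL-1β. The groups did not overlap, and the lines spread more with IL-1β (SD 0.41) than without it (SD 0.14), with line 2 the highest in both. *REL* rose by 0.95 log2 units (standard error 0.18, adjusted p = 0.00543 from limma), under the fold threshold of 1. *RELB*, the usual partner of p52, was at 9.79, 10.06, 10.61, 10.00 and 9.51 without IL-1β and at 10.85, 10.68, 10.89, 10.51 and 10.60 with IL-1β. It was higher in all 5 lines, but the groups overlapped, because line 3 had a higher value without IL-1β than lines 4 and 5 had with IL-1β. The log2 fold change of *RELB* was 0.71 (standard error 0.18, adjusted p = 0.0206 from limma), and *RELB* passed the test in 10 of 15 fits with a library or a line removed. It did not pass without the library of line 1 from either group or without line 1, line 2 or line 5, with adjusted p between 0.0507 and 0.113.

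*RELA*, whose product p65 pairs with p50 in the most common form of NF-κB, did not pass the test. It was at 12.19, 12.21, 12.27, 12.30 and 12.24 without IL-1β and at 12.60, 12.38, 12.40, 12.16 and 12.40 with IL-1β. Line 4 was lower with IL-1β and the other 4 lines were higher, and the groups overlapped. The log2 fold change was 0.15 (standard error 0.09, 95% confidence interval -0.04 to 0.34, adjusted p = 0.288 from limma). On the fold scale the interval runs from 0.97 to 1.27, so changes of the size of those of *NFKB1* and *NFKB2* lie outside it. Without IL-1β the 5 lines differed by an SD of only 0.04.

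Of the classical inhibitors, *NFKBIA* and *NFKBIB* rose. *NFKBIA* was at 10.70, 11.09, 11.15, 10.68 and 10.66 without IL-1β and at 12.81, 12.55, 12.47, 12.46 and 12.17 with IL-1β. The groups were 1.02 apart, and the change by line ran from 1.32 in line 3 to 2.11 in line 1. *NFKBIA* rose by 1.64 log2 units (standard error 0.14, 95% confidence interval 1.33 to 1.95, adjusted p = 1.07e-04 from limma). *NFKBIB* was at 9.64, 9.88, 9.95, 9.74 and 9.56 without IL-1β and at 10.67, 10.46, 10.28, 10.22 and 10.50 with IL-1β. These groups did not overlap either, although they were only 0.27 apart. Its log2 fold change was 0.67 (standard error 0.11, 95% confidence interval 0.42 to 0.93, adjusted p = 0.00336 from limma).

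*NFKBIE*, the gene of IκBε, was higher with IL-1β in all 5 lines but did not pass the test. It was at 8.55, 9.05, 8.95, 8.55 and 8.49 without IL-1β and at 9.45, 9.24, 9.18, 8.74 and 9.32 with IL-1β. The lines fell into large changes (0.91 in line 1 and 0.83 in line 5) and small ones (0.19 in lines 2 and 4 and 0.23 in line 3), and the groups overlapped. Its log2 fold change was 0.47 (standard error 0.17, 95% confidence interval 0.10 to 0.84, adjusted p = 0.0837 from limma). Without the library of line 4 with IL-1β it was 0.58, with an adjusted p of 0.0251 from limma.

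The nuclear IκB genes *NFKBIZ* and *BCL3* had the largest and the smallest change of the family. *NFKBIZ* was at 8.96, 9.42, 9.68, 9.02 and 8.63 without IL-1β and at 12.03, 12.09, 11.71, 12.70 and 11.78 with IL-1β. All libraries with IL-1β were at least 2.02 above those without it. The log2 fold change of *NFKBIZ* was 2.92 (standard error 0.22, 95% confidence interval 2.42 to 3.41, adjusted p = 7.28e-05 from limma). On the fold scale this interval of the mean change runs from 5.37 to 10.6. By line the log2 change ran from 2.02 in line 3 to 3.68 in line 4. Its rise ranked 102 among all 17992 genes tested, that of *NFKBIA* 345 and that of *NFKB2* 485. *BCL3* was at 6.47, 6.28, 6.78, 6.57 and 6.10 without IL-1β and at 6.11, 6.60, 6.53, 6.72 and 6.43 with IL-1β. It was higher with IL-1β in 3 lines and lower in 2, in line 1 by the most. For *BCL3* the log2 fold change came to 0.04 (standard error 0.20, 95% confidence interval -0.40 to 0.47, adjusted p = 0.928 from limma). In normalized counts its means were 67.8 without and 69.7 with IL-1β.

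**Figure D2:**
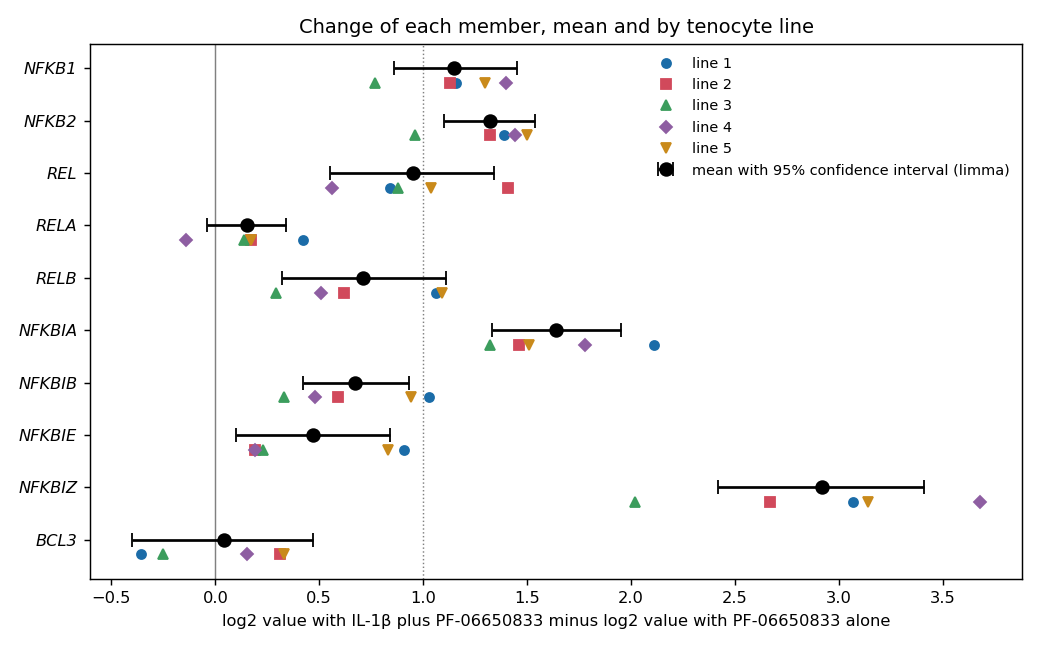
Change of each member in log2 units (x axis, IL-1β plus PF-06650833 minus PF-06650833 alone), as the mean with its 95% confidence interval from limma (black, n = 5 libraries per group) and as the change within each of the 5 lines (coloured). The dotted line marks a log2 fold change of 1. The interval of *NFKBIZ* (2.42 to 3.41) lies above that of every other member, and those of *RELA* and *BCL3* include 0.

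Lines differed in how far the family moved. Of the 7 members that rose, 6 had their smallest change in line 3 and *REL* had its smallest in line 4. Line 3 had the smallest change in 43.0% of all 1362 genes that rose, a share to read beside the 6 of 7 members. With PF-06650833 alone, line 3 had the highest value of the 5 lines for *RELB*, *NFKBIA*, *NFKBIB*, *NFKBIZ* and *BCL3*, and line 2 for *NFKB1*, *NFKB2*, *REL* and *NFKBIE*. The median change over the 10 members was 0.55 in line 3 and 0.53 in line 4, against 0.88 in line 2, 1.05 in line 1 and 1.06 in line 5. Over all 1362 genes that rose, the medians were also lowest in line 3 (0.60) and line 4 (0.74), against 0.85 in lines 1 and 2 and 0.95 in line 5. Line 4 combined the largest change of *NFKBIZ* (3.68) and of *NFKB1* (1.40) with the smallest changes of *REL* (0.56) and *RELA* (-0.14). Line 1 had the largest changes of *NFKBIA*, *NFKBIB*, *NFKBIE* and *RELA* and the lowest change of *BCL3* (-0.36). All 10 members were higher with IL-1β in lines 2 and 5, and 9 of the 10 in each of the others.

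The members did not move by the same amount, and 6 pairs chosen by their roles were compared within each library, where the scaling between libraries cancels. These differences reuse the values tested above, so their p-values are no separate evidence that a member rose. The p-values are from exact two-sided permutation tests of 5 libraries against 5, whose smallest possible p is 0.00794, and were adjusted over the 6 pairs. *NFKBIA* rose relative to *RELA*, the subunit that IκBα holds, by 1.49 ± 0.31 log2 units (SD over 5 lines, adjusted p = 0.0159, exact permutation test). The difference was -1.38 ± 0.25 without IL-1β and 0.10 ± 0.21 with IL-1β, and the groups did not overlap. *NFKBIZ* rose relative to *BCL3* by 2.88 ± 0.58 and *REL* relative to *RELA* by 0.80 ± 0.30 (adjusted p = 0.0159 for each, exact permutation test), again with no overlap. *RELB* rose relative to *RELA* by 0.56 ± 0.29 (adjusted p = 0.0381, exact permutation test), from 0.15 in line 3 to 0.92 in line 5. The difference between the precursors was small, *NFKB2* rising 0.17 ± 0.08 more than *NFKB1* (adjusted p = 0.0476, exact permutation test). *NFKBIE* changed by 0.20 ± 0.13 less than *NFKBIB* (adjusted p = 0.0357, exact permutation test), in the same direction in all 5 lines. In the last 3 of these pairs the groups overlapped. An exact sign-flip permutation test of the 5 lines as pairs cannot go below p = 0.0625, and all 6 differences, each with the same sign in 5 of 5 lines, gave that value.

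**Figure D3:**
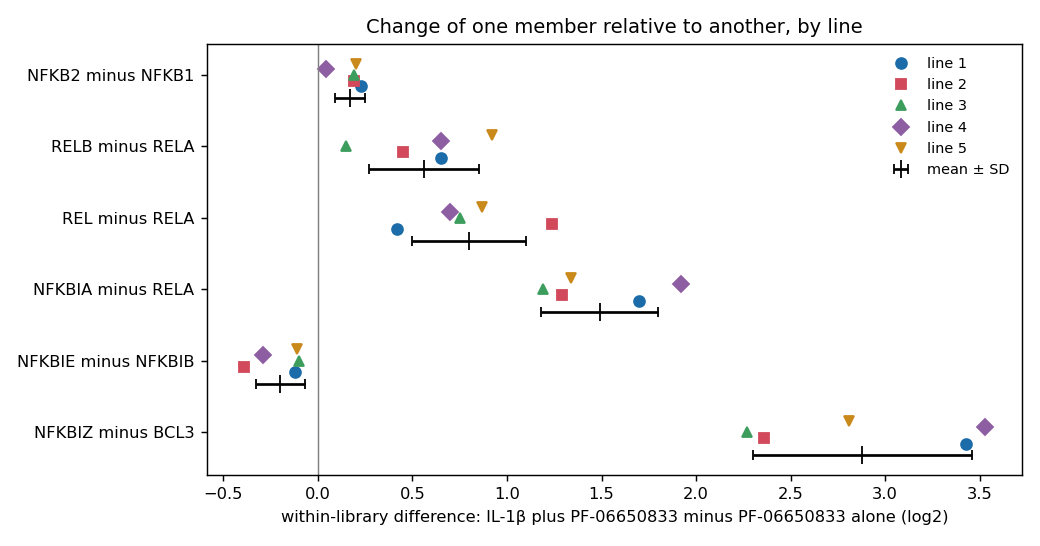
Change, in log2 units (x axis), of the within-library difference between 2 members from PF-06650833 alone to IL-1β plus PF-06650833, 1 coloured point per line, with the mean ± SD over the 5 lines in black. All 5 lines lie on the same side of 0 in each of the 6 pairs, from -0.20 on average for *NFKBIE* minus *NFKBIB* to 2.88 for *NFKBIZ* minus *BCL3*.

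The genes around the family in the pathway were read from 6 lists by role. Their counts stand beside the 15.5% of all tested genes that passed with all libraries. Without line 1, 2 or 5 fewer of all genes passed, 1244 of 17455, 1275 of 17418 and 1295 of 17385. Among the IκB kinases, their activating kinase TAK1 and linked enzymes, 4 of 14 tested genes (28.6%) passed the test, 3 higher and 1 lower, with a median log2 fold change of 0.09. *IKBKE*, which encodes the kinase IKKε, rose from 9.80 ± 0.13 to 11.11 ± 0.26 (SD, n = 5, log2 fold change 1.31, adjusted p = 1.90e-04 from limma). *TBK1*, a relative of IKKε, and *RBCK1*, a subunit of the linear ubiquitin ligase, rose by less (log2 fold changes 0.45 and 0.37, adjusted p = 0.00981 and 0.0345 from limma). *MAP3K7*, the gene of TAK1, fell by 0.67 on the log2 scale and was lower in all 5 lines (adjusted p = 0.00215 from limma). The genes of the core kinase complex, *CHUK*, *IKBKB* and *IKBKG*, which lie outside the naming rule and were added after their values were seen, had log2 fold changes of 0.11, 0.06 and 0.07 and did not pass (adjusted p = 0.824, 0.713 and 0.681 from limma). *CHUK* was higher with IL-1β in 4 of the 5 lines and lower in line 1, whose libraries stood apart at 11.71 without IL-1β (the others at 10.29 to 10.43) and 11.28 with it (10.53 to 10.72). Its log2 fold change was 0.38 without the IL-1β-free library of line 1, -0.02 without the IL-1β library of line 1 and 0.25 without both, and did not pass in any of these fits. *IKBKG* was at -0.01 without line 1. The count of this list was 2 without line 2 or line 5, where *TBK1* did not pass. *RBCK1* passed in 4 of the 15 fits without a library or a line, those that left out the IL-1β-free library of line 2 or 5, the IL-1β library of line 3 or both libraries of line 3. With all libraries it did not pass after quantile normalization (adjusted p = 0.0538 from limma) or with no mean-variance trend in the fit (0.0608).

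At the IL-1 receptor and the Myddosome, the complex of MyD88 with the IRAK kinases, 7 of 16 tested genes (43.8%) passed, 6 higher and 1 lower, with a median log2 fold change of 0.32. *IL1A*, among the 6 higher, had 0 reads in all 5 libraries without IL-1β, so it met the filter only through those with IL-1β. With only genes above the lowest value in all libraries, 5 of 14 passed, 4 higher and 1 lower. *IRAK4*, the target of the inhibitor, was at 9.84 ± 0.16 without IL-1β and 9.95 ± 0.16 with IL-1β (SD, n = 5, adjusted p = 0.571 from limma). Its relatives *IRAK2*, which transmits the signal, and *IRAK3*, which restrains it, rose by 1.86 and 1.04 log2 units (adjusted p = 0.00218 and 0.0117 from limma). *IL1B*, also among the 6 higher, had 0 reads in 4 of the 5 libraries without IL-1β and about 1 normalized count in line 1. It therefore met the filter through the libraries with IL-1β, where the values were between 4.93 and 6.87, and no p-value is given for it. The stricter filter left out both *IL1A* and *IL1B*. The ubiquitin ligase gene *PELI2* fell by 1.12 (adjusted p = 0.0219 from limma). It did not pass when the IL-1β-free library of line 1 or 2, the IL-1β library of line 2 or both libraries of line 1, 2 or 5 were left out. The count of this list was 4 of 15 tested genes without the library of line 2 with IL-1β. It was 2 of 14 without line 1 and 3 of 15 without line 2 or line 5. In these fits *IL1A* no longer met the filter and was not tested, and without line 1 neither was *IL1B*.

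In the branch that turns the *NFKB2* precursor into p52, 5 of 10 tested genes (50%) passed, 3 higher and 2 lower, with a median log2 fold change of 0.29. Whether more p52 was made was not measured. *MAP3K14*, a kinase gene of this list outside the naming rule, was lower in 4 of the 5 lines and did not pass (log2 fold change -0.46, adjusted p = 0.17 from limma). *BIRC2*, which encodes the ubiquitin ligase cIAP1, rose by 1.09 on the log2 scale, with groups at 12.01 ± 0.14 and 13.10 ± 0.11 (SD, n = 5, adjusted p = 1.07e-04 from limma). The receptor gene *CD40* and the adaptor gene *TRAF3* rose by 0.96 and 0.48 (adjusted p = 0.00228 and 0.0212 from limma). *TNFRSF13C*, the gene of a receptor of the TNF family, and *OTUD7B*, the gene of a deubiquitinase, fell by 1.31 and by 0.54 (adjusted p = 0.0145 and 0.0198 from limma). The count of this list was 3 without the library of line 1 with IL-1β and 2 without line 1, line 2 or line 5. In these 4 fits *OTUD7B* did not pass, and in the last 3 *TNFRSF13C* did not either. *TRAF3* passed in 7 of the 15 fits, those that left out the IL-1β-free library of line 3 or 4, the IL-1β library of line 3, 4 or 5 or both libraries of line 3 or 4.

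Among the genes of IκB turnover and binding, 2 of 13 tested genes passed, a share of 15.4% beside the 15.5% of all genes. These were *SKP1*, a subunit of the ubiquitin ligase that recognises phosphorylated IκB, and *UBE2D1*, a ubiquitin-conjugating enzyme (log2 fold changes 0.66 and 0.82, adjusted p = 0.00887 and 0.0126 from limma). Both have close relatives in the genome between which reads can be shared. The count from limma was 1 without line 2, where *UBE2D1* did not pass, and 0 without line 5, where 2 of the 13 had an unadjusted p below 0.05. Among nuclear regulators of NF-κB, 4 of 16 tested genes (25%) passed, 2 higher and 2 lower. The deacetylase gene *HDAC1* and the SUMO ligase gene *PIAS4* rose by 0.58 and 0.46, the importin gene *KPNA4* fell by 0.25, and *PDLIM2*, whose product promotes the breakdown of nuclear RelA, fell by 1.05 (adjusted p between 0.00916 and 0.0475 from limma). Of the 15 fits without a library or a line, *HDAC1* passed in 14 and not without line 2. *PIAS4* passed in 5, those that left out the IL-1β-free library of line 2 or 5, the IL-1β library of line 3 or 4 or both libraries of line 3. *KPNA4* passed in 4, those without the IL-1β-free library of line 2 or the IL-1β library of line 3, 4 or 5, and *PDLIM2* in 3, those without the IL-1β-free library of line 1 or 3 or both libraries of line 3. With all libraries, *KPNA4* did not pass after median centring or with no mean-variance trend (adjusted p = 0.0716 and 0.0705 from limma). *PDLIM2* did not pass with all non-constant genes tested, with no mean-variance trend or with robust empirical Bayes (adjusted p = 0.0526, 0.0598 and 0.0507 from limma). The count of the list was 0 to 2 in 10 of these fits, namely when the IL-1β-free library of line 1, 4 or 5, the IL-1β library of line 1, 2 or 5 or both libraries of line 1, 2, 4 or 5 were left out.

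The feedback and survival targets of NF-κB had the highest median change of the 6 lists. Of 16 tested genes 8 (50%) passed, against 15.5% of all tested genes, 6 higher and 2 lower, with a median log2 fold change of 0.47. *ZC3H12A*, whose product degrades inflammatory mRNAs, rose from 9.25 ± 0.30 to 12.29 ± 0.37 (SD, n = 5, log2 fold change 3.04, adjusted p = 1.78e-05 from limma). *IER3*, an early response gene, and *SOD2*, the mitochondrial superoxide dismutase, rose by 4.06 and 2.52 (adjusted p = 1.16e-04 and 0.00129 from limma). *GADD45B* and *TRAF1*, which are also known as NF-κB targets, fell by 0.75 and by 0.66 on the log2 scale and were lower in all 5 lines (adjusted p = 0.00745 and 0.0121 from limma). *TRAF1* did not pass without line 2 (adjusted p = 0.0708 from limma).

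**Figure D4:**
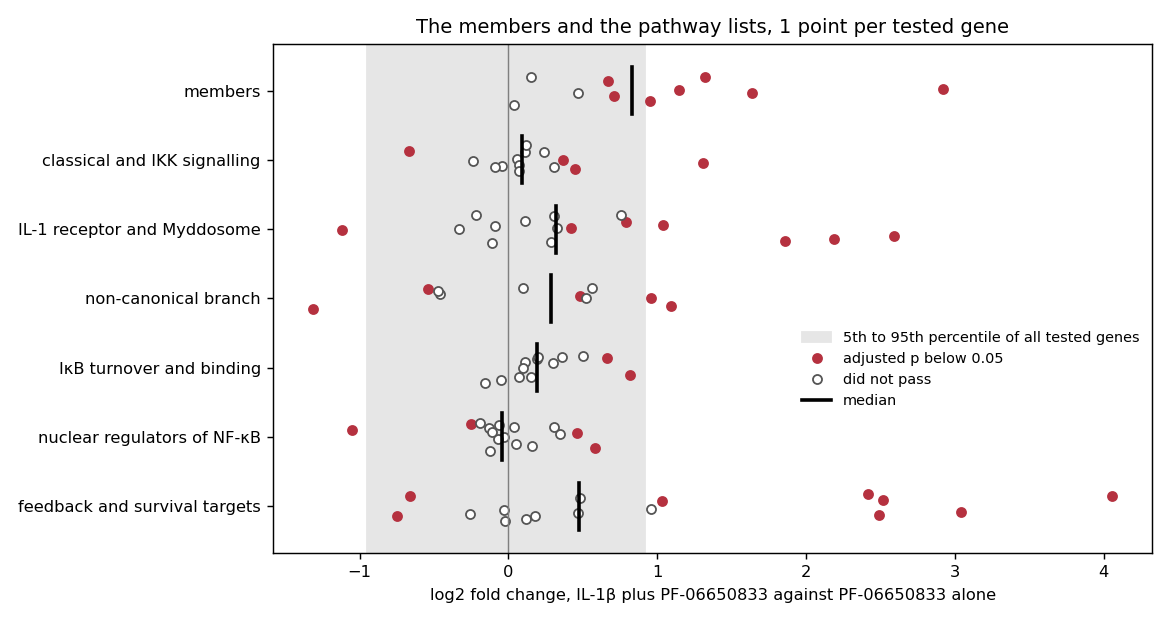
Log2 fold change (x axis, IL-1β plus PF-06650833 against PF-06650833 alone) of the 10 members and of the tested genes of 6 pathway lists, 1 point per gene, filled where the adjusted p from limma is below 0.05. Black bars are medians, and the grey band holds the 5th to 95th percentile of all 17992 tested genes (-0.95 to 0.92). The members have a median of 0.83, and the medians of the lists lie between -0.04 and 0.47.

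The labelled cell type was checked by marker genes. *COL1A1*, *COL1A2*, *DCN*, *SCX*, *MKX*, *COMP* and *THBS4* had reads in all 10 libraries and *TNMD* had none. *SCX*, *MKX* and *COMP*, markers of tendon identity, fell with IL-1β, *SCX* by 3.24 log2 units (adjusted p = 6.11e-04 from limma). *COL1A1*, *COL1A2* and *THBS4* were lower and did not pass (log2 fold changes -1.38, -1.28 and -1.22, adjusted p = 0.0682, 0.0614 and 0.437 from limma). *DCN* was higher and did not pass (1.01, adjusted p = 0.268 from limma), and *COL3A1* had no values. Of 9 leukocyte markers *CD3E* and *MS4A1* had 0 reads throughout and *PTPRC* had at most 3 normalized counts in any library. *CD68* rose (log2 fold change 1.70, adjusted p = 0.00795 from limma), and *CD14* was at 0 reads in 4 libraries and reached 10.73 in others. The leukocyte markers summed to 61 to 1770 normalized counts without IL-1β and 171 to 1944 with IL-1β. Of the 9, 6 stayed under 30 normalized counts in every library. *CD14* alone reached 1662 without and 1682 with IL-1β, and *CD68* 103 and 738. The 5 endothelial markers summed to 3 to 47 and 3 to 26. Of 4 epithelial markers, *EPCAM* and *KRT5* had 0 reads, *CDH1* fell, and the sums were 538 to 1574 and 45 to 442. *CDH1* alone reached 1571 without and 442 with IL-1β. The part of the falls of *SCX*, *MKX*, *COMP* and *CDH1* and of the rise of *CD68* in the changes of the family was not tested.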

How the data were processed

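The table deposited by the authors holds log2 values of 29196 genes in 10 libraries of primary equine tenocytes, 1 per line and group, and all 10 columns were used. Per the labels and the methods of the study, RNA was sequenced as paired-end reads on an Illumina NovaSeq, checked with FastQC (version 0.11.9), quantified with Salmon (version 1.8) on the EquCab3.0 transcriptome with GC-bias correction, and summed to genes with tximport. The authors normalized the log2 values between libraries. The transformation is not given in the sources used here and was taken to be variance-stabilizing. The lowest value of 3.433, which all libraries share, does not by itself identify it. The test of the authors (DESeq2) needs counts, so limma (version 3.58.1, R version 4.3.3) was used in its place, with a mean-variance trend and no line term, on the 17992 genes whose value exceeded the lowest one in 5 or more libraries, with Benjamini-Hochberg adjustment over all of them.

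The replicate number stands for the horse, so the numbers pair the libraries. Deviations from the group means correlated across genes between 0.367 and 0.506 in the 5 pairs of the same line, against a mean of -0.107 over 20 pairs of different lines. No libraries were identical (correlations 0.936 to 0.985). Normalized counts were obtained by inverting the assumed transformation and rest on it. The value of 1 read was then estimated from the spacing of low values, of which 57.2% to 79.2% per library lay within 0.15 of a whole read (30% for evenly spread values), so reads are approximate. The fit and the inversion were run on simulated data made with the same formula and no line effect. This checks the code and not whether the deposited values follow that transformation.

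The members and the lists were chosen with earlier results of these data known. Named are all members, *IRAK4*, and per list up to 3 genes higher and 3 lower of the smallest adjusted p, with *CHUK*, *IKBKB* and *IKBKG* added later. *IL1A* and *MAP3K14* are mentioned besides, also after their values were seen. The table of RefSeq genes at hand is of another assembly, so no positions are given, and planned looks at sequence were not made. The alternatives were the line as a block, log2(normalized count + 1) and + 0.5, other filters, quantile normalization, median centring, other variance models, array weights, an adjusted p below 0.01, and leaving out libraries or lines.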

Additional observations from a re-analysis of the deposited data

Results flagged for a closer look

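Of 76 groups of 5 libraries, 4 held a library far from the other 4, where chance, at about 1 in 20 groups, gives 3.8. The groups are those of the members and of the named genes of the pathway lists, without *IL1A* and *MAP3K14*, in each treatment. None is a group of a member. *IL1B* was at 3.90 in line 1 without IL-1β, about 1 normalized count, and at the value of 0 reads in the other 4 lines. *ZC3H12A* was at 11.66 in line 3 with IL-1β, against 12.35 to 12.63 in the other lines. *CHUK* was highest in line 1 in both groups, at 11.71 without IL-1β against 10.29 to 10.43, and at 11.28 with it against 10.53 to 10.72.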

How the results depend on the processing

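The 7 members that rose were higher, and *RELA* and *NFKBIE* had positive changes, in every fit tried. The number of members past the test was 6 to 8 in all fits and 4 to 5 with a log2 fold change of at least 1. *RELB* did not pass in the 5 fits already given and at an adjusted p below 0.01, and *NFKBIE* passed with array weights (log2 fold change 0.56, adjusted p = 0.0234 from limma). *BCL3*, which did not pass in any fit, had changes from -0.05 to 0.14 when libraries or lines were left out, below 0 without the IL-1β-free library of line 2 or 5, the IL-1β library of line 4 or both libraries of line 2 or 5. *CHUK* and *IKBKG*, which did not pass in any fit either, ranged from -0.02 to 0.38 and from -0.01 to 0.14, with *CHUK* below 0 without the IL-1β library of line 1 and *IKBKG* without both libraries of line 1. Over all genes, the 2782 past the test were 4231 with array weights, 1144 at an adjusted p below 0.01 and 1244 to 3252 with a library or line left out, lowest without line 1, 2 or 5, and 1821 without the IL-1β library of line 2. With the fold limit, the 1202 genes from limma were 719 at an adjusted p below 0.01 and 747 to 1410 with a library or line left out. The study reports more genes than this for the same comparison, from DESeq2. The count of 1202 that it gives is of another comparison, IL-1β alone against IL-1β plus PF-06650833.

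Of the lists, at an adjusted p below 0.01 the counts were 2 for the IL-1 receptor, 2 for the p52 branch, 1 for IκB turnover and 1 for nuclear regulators. The p52 branch had 8 with array weights and nuclear regulators 2 without a mean-variance trend. With libraries or lines left out, the counts were 2 to 4 for IκB kinases, 2 to 7 for the IL-1 receptor, 2 to 7 for the p52 branch, 0 to 3 for IκB turnover, 0 to 4 for nuclear regulators and 7 to 9 for feedback targets. Each of these fits holds fewer samples. For the IL-1 receptor, *IL1A* also dropped out of the tested genes when a library with IL-1β was left out, and *IL1B* without line 1. Beyond that the cause was not tested.

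With the line as a replicate block, 3996 of all genes passed (22.2%) and the same 7 members did. The block changed no call of a member or named gene, but of other genes of the lists it added calls, giving counts of 9 for the IL-1 receptor, 6 for the p52 branch, 5 for nuclear regulators and 9 for feedback targets. The counts for IκB kinases and IκB turnover stayed at 4 and 2. For the within-library differences the exact paired sign-flip permutation test gave p = 0.0625, its minimum, for changes of 0.17 (*NFKB2* minus *NFKB1*), 0.56 (*RELB* minus *RELA*), 0.80 (*REL* minus *RELA*), 1.49 (*NFKBIA* minus *RELA*), -0.20 (*NFKBIE* minus *NFKBIB*) and 2.88 (*NFKBIZ* minus *BCL3*). Without 1 line these ranged over 0.15 to 0.20, 0.47 to 0.67, 0.68 to 0.89, 1.38 to 1.56, -0.23 to -0.16 and 2.72 to 3.03, with adjusted p of up to 0.143 where 4 against 4 cannot go below 0.0286 before adjustment (exact permutation tests).

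Confidence intervals are of the mean difference between groups of 5 libraries, 1 per horse and treatment, with no line term. They do not give the range of the changes by line. The count model of the study could not be refitted on these values.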
